A study of Mus musculus with 8 samples.

Results

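The 10 genes S100a4, S100a6, S100a10, S100a11, Lgals1, Lgals3, Anxa1, Anxa2, Vim and Crip1 were followed in CD4+ T cells sorted from the knee joints of arthritic mice. They were chosen by symbol, and all 10 were found among the 24421 symbols of the count table and passed the filter on low counts. Wild-type cells gave 4 libraries, and cells with a knockout of Slc7a5 gave 4. Slc7a5 is the light chain of a transporter for large neutral amino acids. The mice of both genotypes were male, were 16 weeks old and had antigen-induced arthritis, in which an immunised animal develops inflammation of a joint that meets the antigen again. The labels do not give the promoter or Cre that drives the deletion, the part of Slc7a5 that is lost, the number of cells per library, or whether each library is its own animal. The p-values therefore rest only on how these libraries vary, and some of that variation may be technical.

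The S100 proteins are small EF-hand proteins that bind calcium and then dock onto partner proteins. Annexins bind membrane phospholipids in the presence of calcium, and S100a10 joins Anxa2 while S100a11 joins Anxa1 in complexes at the membrane. Galectins bind beta-galactoside sugars on surface glycoproteins, vimentin forms intermediate filaments, and Crip1 is a small LIM-domain protein. In T cells the transcripts of these genes are known to be scarce in naive cells and abundant in effector and memory cells, above all in cells that have entered tissue.

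4 members lie on mouse chromosome 3 in 2 close pairs (GRCm38.p6, RefSeq gene table). S100a4 (3:90603770-90606045) and S100a6 (3:90612894-90614414) have 6848 bases between them, and S100a11 (3:93520496-93526288) and S100a10 (3:93555117-93564645) have 28828. The others are scattered, with Lgals1 on chromosome 15 (78926725-78930465), Lgals3 on 14 (47373860-47386167), Anxa1 on 19 (20373434-20390671), Anxa2 on 9 (69453683-69491792), Vim on 2 (13574311-13582826) and Crip1 on 12 (113152012-113153879). Promoter windows of the 250 bases before the transcript start were found in RefSeq for 8 of the 10 members. S100a10 and Lgals1 were not matched. The windows were searched on both strands for the AP-1 motif TGANTCA and for the GC box GGGCGG, which do not overlap in letters. AP-1 is a factor induced by activation of T cells, and GC boxes are bound by Sp factors. The 5 windows printed here belong to the chromosome 3 neighbours S100a4 and S100a6, whose levels were far from parallel in the knockout libraries, and to Crip1, Anxa2 and Lgals3, whose profiles across the libraries were most alike. They are on the plus strand, end at the base before the start, and carry motif matches in capitals.
S100a4 (chr3:90603520-90603769): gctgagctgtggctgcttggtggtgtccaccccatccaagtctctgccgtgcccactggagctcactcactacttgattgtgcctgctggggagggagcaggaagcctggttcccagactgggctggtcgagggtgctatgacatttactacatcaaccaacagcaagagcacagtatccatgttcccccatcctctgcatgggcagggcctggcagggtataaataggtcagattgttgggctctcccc
S100a6 (chr3:90612644-90612893): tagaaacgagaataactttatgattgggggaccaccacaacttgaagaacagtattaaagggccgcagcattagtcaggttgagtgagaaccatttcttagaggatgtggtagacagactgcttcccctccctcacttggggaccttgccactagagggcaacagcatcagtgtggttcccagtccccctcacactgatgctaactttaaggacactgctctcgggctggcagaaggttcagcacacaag
Crip1 (chr12:113151762-113152011): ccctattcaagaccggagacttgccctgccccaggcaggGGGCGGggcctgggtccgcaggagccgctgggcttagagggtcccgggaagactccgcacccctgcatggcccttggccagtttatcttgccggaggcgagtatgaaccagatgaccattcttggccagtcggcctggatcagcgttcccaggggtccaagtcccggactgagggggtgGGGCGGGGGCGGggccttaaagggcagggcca
Anxa2 (chr9:69453433-69453682): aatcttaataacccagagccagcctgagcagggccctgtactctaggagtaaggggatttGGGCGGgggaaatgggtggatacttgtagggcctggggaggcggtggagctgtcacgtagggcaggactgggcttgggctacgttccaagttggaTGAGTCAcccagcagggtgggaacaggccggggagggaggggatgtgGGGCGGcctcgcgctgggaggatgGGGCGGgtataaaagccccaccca
Lgals3 (chr14:47373610-47373859): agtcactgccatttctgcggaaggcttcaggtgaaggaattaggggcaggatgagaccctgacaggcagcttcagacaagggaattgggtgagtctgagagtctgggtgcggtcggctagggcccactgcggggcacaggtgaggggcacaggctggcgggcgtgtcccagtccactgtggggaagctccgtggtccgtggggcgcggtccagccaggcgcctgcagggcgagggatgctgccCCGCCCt
The AP-1 letters stood in 2 of the 8 windows, once in Anxa2 at base -95 and in S100a11 at bases -136 and -38, against 6.75% of 32851 RefSeq promoter windows of the same length. GC boxes stood in 4 of the 8, those of S100a11, Anxa2, Crip1 and Lgals3, against 32.7% of all windows. The windows of S100a4, S100a6, Vim and Anxa1 held neither set of letters. These matches describe the sequence and show no binding.

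The libraries held 18837650 to 36436923 counts, and 5221 to 10139 genes had at least 1 count. Knockout replicate 4 had the fewest genes and stood apart, with Spearman correlations across genes of 0.489 to 0.544 with the other libraries, so results that rest on it are given with and without it. Slc7a5 was counted 385, 194, 410 and 0 times in wild-type replicates 1 to 4 and 0 times in each knockout library. By this gene the library labelled wild-type replicate 4 could not be told from knockout, so its values are held to its label only. Without it 8 of the 10 members still had lower estimates (median log2 fold change -0.35), and S100a4 came to -2.79. All 12 T cell identity markers were detected, with a summed level of 9740 to 13125 CPM (reads scaled to equal library size) in wild type and 7767 to 10104 CPM in knockout. Their estimates were lower in knockout for 10 of 12, with a median log2 fold change of -0.38, close to that of the members below. 4 of the 12 had a lower level at an unadjusted p under 0.05 (edgeR), against 1.97% of all tested genes, and none passed after adjustment. 5 had every knockout library under every wild-type library, against 4.62% of all tested genes. The part of this difference in the members' levels was not tested. Of 15 markers of monocytes, macrophages and dendritic cells, 12 were detected and Adgre1, Fcgr1 and Mrc1 were at 0 in all libraries. Their sum was 1251 to 3010 CPM in wild type and 8688, 9939, 1953 and 10891 CPM in knockout replicates 1 to 4, mostly Cd74 and the MHC class II genes. 7 of the 15 passed the filter, with 5 higher and 2 lower estimates. The 4 with an unadjusted p under 0.05 (edgeR), all higher, were Cd74, H2-Ab1, H2-Aa and H2-Eb1, and none passed after adjustment. For wild type their means were 1172, 290, 116 and 46.0 of a mean sum of 1720 CPM. For knockout they were 4837, 2071, 675 and 214 of 7868 CPM, so the rest of the list was not higher on average. Monocytes, macrophages and dendritic cells also express several of the 10 genes. Their number, and the part of the difference in the sum in the levels below, were not tested.

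None of the 10 genes passed the test between genotypes (edgeR's quasi-likelihood test, adjusted p under 0.05), and none had an unadjusted p under 0.05. Among all 8489 genes tested, 0% passed and 1.97% had an unadjusted p under 0.05 with a lower knockout level. The estimates were lower in knockout for 8 of the 10 members, with a median log2 fold change of -0.35, while 55.0% of all tested genes had a lower estimate and their median was -0.12. Among 2816 abundant genes, with counts in all libraries and a mean of at least 50 CPM as 8 of the members have, 42.9% had a lower estimate and the median was 0.12. The widest gap was that of S100a4, and Anxa1 and S100a6 had estimates above 0. DESeq2 called 3.63% of 10659 genes and none of the 10, and limma voom called none of the 10 either. In bulk libraries, fewer cells of a type and less RNA per cell cannot be told apart.

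**Figure D1:**
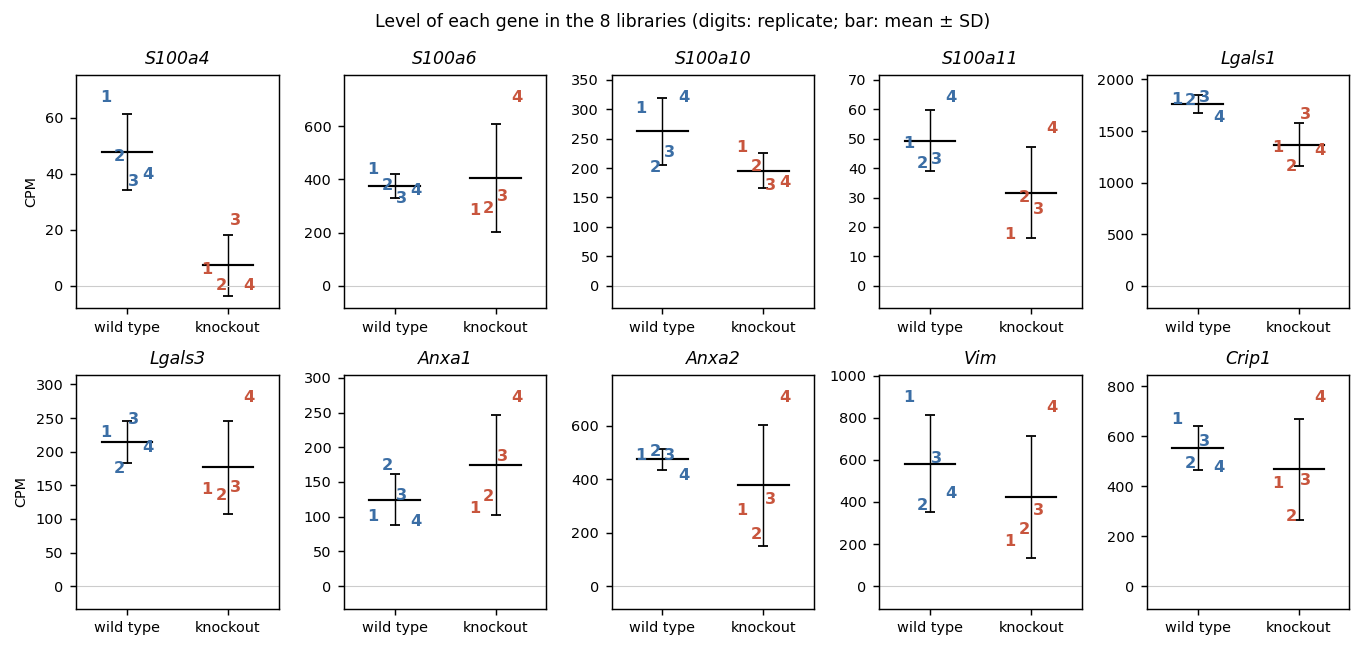
CPM of each member in every library (vertical axis in CPM), with 4 wild-type and 4 knockout libraries, digits giving the replicate, a bar the mean and an error line the SD, which for S100a4 in knockout reaches below 0. The S100a4 points of knockout lie below all wild-type points, and the highest knockout point of S100a6, S100a11, Lgals3, Anxa1, Anxa2, Vim and Crip1 is replicate 4.

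S100a4, a calcium-binding protein known for promoting cell motility through non-muscle myosin, was counted 2422, 1277, 1214 and 903 times in wild-type replicates 1 to 4. In knockout replicates 1 to 4 it was counted 139, 1, 581 and 1 times. Scaled to library size, this was 67.3, 46.1, 37.4 and 39.9 CPM in wild type and 5.85, 0.0556, 23.1 and 0.0522 CPM in knockout. The highest knockout value was under the lowest wild-type value, and replicates 2 and 4 held 1 count each. The means were 47.7 ± 13.6 CPM for wild type and 7.28 ± 10.9 CPM for knockout (SD, n = 4 each). The log2 fold change was -2.71 with a standard error (SE) of 1.92 (edgeR unadjusted p = 0.183, adjusted p = 0.9999), so the gene was not called. A two-sided exact permutation test of the single gene gave p = 0.0286, the smallest that 4 against 4 libraries allow. The gene was among 10 looked at, and Lgals1 had the next smallest p in this permutation test, 0.0571. Of all tested genes, 4.62% likewise had every knockout library below every wild-type library, and 1.52% had every knockout library above.

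The low S100a4 counts in single libraries were set beside those of genes at a like wild-type level. Of 2030 genes within 1.5 times its wild-type mean and with counts in all wild-type libraries, 17.6% had at most 1 count in knockout replicate 2 and 49.2% in replicate 4. Both libraries were at most 1 for 218 of them (10.7%). All 4 knockout libraries lay below all wild-type libraries for 108 (5.32%). The error of counting reads was small beside these gaps. For 1 count in knockout replicate 2 the 95% exact Poisson interval is 0.00141 to 0.310 CPM. The RNA was amplified from low input, and this interval does not cover loss of molecules before amplification, which was not measured. The log2 fold change of S100a4 was -2.31 without knockout replicate 4, -4.58 without knockout replicate 3, and -1.71 without replicates 2 and 4.

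S100a6, the neighbour of S100a4 and like it a small calcium-binding protein, had another arrangement of libraries. Its wild-type values were 437, 375, 329 and 358 CPM, and its knockout values 283, 290, 336 and 708 CPM. Knockout replicates 1 and 2 lay below all wild-type libraries, replicate 3 lay among them and replicate 4 above them. The means of 375 ± 45.8 and 405 ± 204 CPM gave a log2 fold change of 0.11 (SE 0.32), which became -0.32 without knockout replicate 4. Knockout replicate 4 was thus the library with the most S100a6, while it held 1 count of S100a4. The CPM ratio of S100a6 to S100a4 was 6.49 to 8.98 in wild type and at least 14.5 in each knockout library.

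S100a10, which joins Anxa2 in a complex at the membrane, was 301, 200, 226 and 320 CPM in wild type and 235, 202, 170 and 175 CPM in knockout. The groups overlapped, with means of 262 ± 57.6 and 195 ± 30.1 CPM and a log2 fold change of -0.42 (SE 0.31). It was 1 of the 2 members besides S100a4 for which knockout replicate 4 lay below all wild-type libraries, the other being Lgals1. S100a11, the partner of Anxa1, was 48.5, 41.6, 43.1 and 64.1 CPM in wild type and 17.3, 30.0, 25.9 and 53.4 CPM in knockout. Its first 3 knockout replicates lay below all wild-type libraries and the fourth among them. The means of 49.3 ± 10.3 and 31.7 ± 15.4 CPM gave -0.64 (SE 1.15), and -1.03 without knockout replicate 4.

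Lgals1, which encodes the galectin known for restraining T cells through their surface glycans, took the most counts of the 10 in every library. It was 1802, 1792, 1828 and 1632 CPM in wild type and 1341, 1159, 1655 and 1313 CPM in knockout. 3 knockout libraries lay below all wild-type libraries, and replicate 3 lay just above the lowest wild-type library. The means were 1764 ± 88.8 and 1367 ± 208 CPM, and the log2 fold change of -0.37 (SE 0.17) had the smallest unadjusted p of the members, 0.0544 (edgeR, adjusted p = 0.9999). It hardly moved without knockout replicate 4, at -0.36, and was -0.08 with an offset for GC content. Lgals3, a galectin that forms lattices on surface glycoproteins, was 229, 175, 247 and 206 CPM in wild type and 144, 135, 147 and 281 CPM in knockout. Its first 3 knockout replicates lay below all wild-type libraries and the fourth above them, so the means of 214 ± 31.0 and 177 ± 69.6 CPM overlapped, with -0.28 (SE 0.36). With the GC offset the Lgals3 estimate was 0.0046.

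Anxa1, an annexin known as a mediator that limits inflammation, had a higher estimate in knockout. It was 99.8, 173, 131 and 93.6 CPM in wild type and 111, 129, 186 and 272 CPM in knockout. Knockout replicates 3 and 4 lay above all wild-type libraries and the other 2 among them, with means of 124 ± 36.5 and 175 ± 72.3 CPM and a log2 fold change of 0.49 (SE 0.44), or 0.18 without replicate 4. Anxa2, which binds plasminogen and its activator at the cell surface together with S100a10, was 487, 503, 488 and 415 CPM in wild type and 283, 192, 324 and 705 CPM in knockout. The first 3 knockout libraries lay below all wild-type libraries and replicate 4 far above them. The means were 474 ± 39.4 and 376 ± 226 CPM, and the log2 fold change was -0.33 (SE 0.36). With single libraries left out it ran from -0.84 without knockout replicate 4 to -0.14 without knockout replicate 2.

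Vim, the intermediate filament of lymphocytes and mesenchymal cells, varied most among the wild-type libraries, at 896, 383, 605 and 442 CPM. In knockout it was 210, 271, 361 and 847 CPM. The first 3 knockout libraries lay below all wild-type libraries and the fourth within their range, with means of 582 ± 230 and 422 ± 290 CPM and a log2 fold change of -0.46 (SE 0.43). It was -1.07 without knockout replicate 4, -0.23 without knockout replicate 1 and -0.18 without wild-type replicate 1. Crip1, the LIM-domain protein, was 666, 491, 578 and 476 CPM in wild type and 411, 279, 424 and 754 CPM in knockout. It had the same arrangement of libraries as Anxa2, with means of 553 ± 87.7 and 467 ± 202 CPM and -0.24 (SE 0.30). With single libraries left out its estimate ran from -0.59 without knockout replicate 4 to -0.09 without knockout replicate 2. With the GC offset the Crip1 estimate was -0.04.

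**Figure D2:**
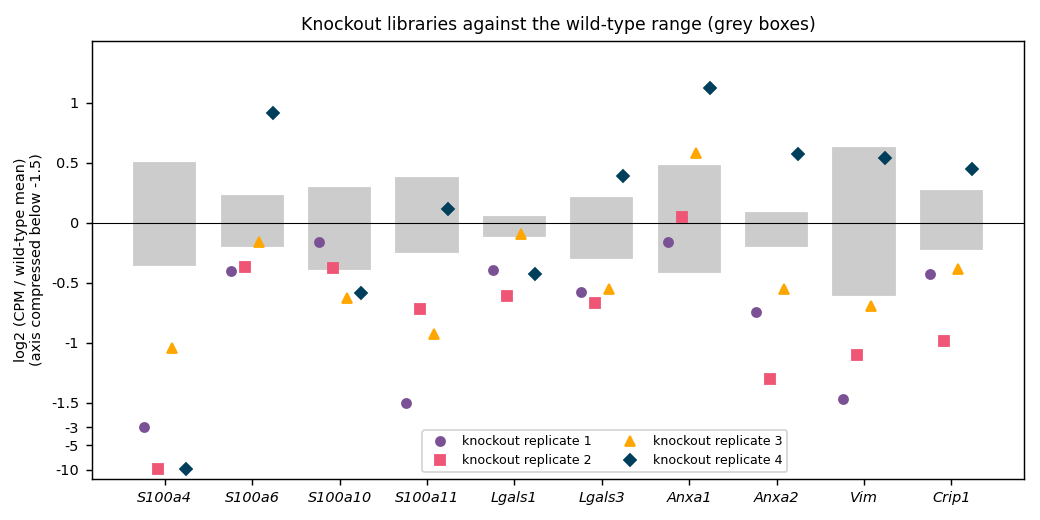
Each knockout library (points, by replicate) relative to the wild-type mean of the gene, on a log2 scale whose lowest part is compressed; grey boxes span the 4 wild-type libraries. Replicates 1 to 3 lie mostly under the boxes, and replicate 4 lies above them for 5 genes and below them for 3.

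The knockout libraries split by replicate over the 10 genes. In replicate 1, 8 members lay below the lowest wild-type library and 0 above the highest, when 25.5% of tested genes lay below and 23.4% above. In replicate 2 the members were again 8 and 0, against 32.6% and 25.8% of tested genes. In replicate 3 they were 7 and 1, against 20.3% and 22.1%. In replicate 4 they were 3 and 5, against 48.2% and 22.1%. Among the abundant genes the order of these shares was reversed in replicates 2 and 4. They were 30.8% below and 32.2% above in replicate 2, and 34.4% below and 40.3% above in replicate 4. In replicate 1 they were 26.1% below and 24% above, and in replicate 3 21.5% below and 25.5% above. The 5 members above the wild-type range in replicate 4 were S100a6, Lgals3, Anxa1, Anxa2 and Crip1.

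Without knockout replicate 4, 6 members had all 3 remaining knockout libraries below every wild-type library, namely S100a4, S100a11, Lgals3, Anxa2, Vim and Crip1, when 6.13% of the 9334 genes then tested did. The median log2 fold change of the members was then -0.60. The edgeR estimates were -0.84 (SE 0.24, unadjusted p = 0.0061, adjusted p = 0.479) for Anxa2 and -1.07 (SE 0.34, unadjusted p = 0.0106, adjusted p = 0.508) for Vim. They were -0.59 (adjusted p = 0.534) for Crip1 and -0.61 (adjusted p = 0.591) for Lgals3. No member passed the threshold in this fit, where the 4 genes just named were the ones with an unadjusted p under 0.05, and the choice of the library to leave out followed the values seen.

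**Figure D3:**
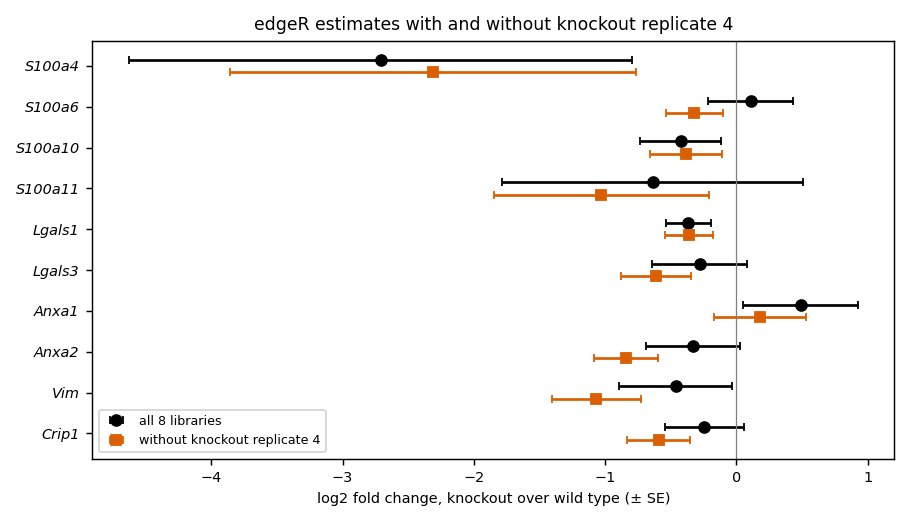
Log2 fold change (knockout minus wild type) of each member with all 8 libraries and without knockout replicate 4; points are edgeR estimates and lines are SE. Without replicate 4 the estimates of S100a6, S100a11, Lgals3, Anxa1, Anxa2, Vim and Crip1 lie lower. That of S100a4 lies higher, and those of S100a10 and Lgals1 hardly differ.

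The 10 genes together took 0.453 ± 0.0358% of the counts in wild type and 0.353 ± 0.124% in knockout (SD, n = 4). Their summed level was 5034, 4181, 4514 and 4048 CPM in wild type and 3042, 2688, 3652 and 5108 CPM in knockout, so that the lowest and the highest of the 8 libraries were both knockout. Without replicate 4 the knockout mean was 3127 ± 488 CPM and 0.298 ± 0.0676% of the counts (n = 3), and the highest of those 3 libraries lay below the lowest wild-type library. Lgals1 made up 39.9% of the sum in wild type and 39.5% in knockout on average. In knockout replicate 4 it made up 25.7%, because the other 9 genes summed to 3796 CPM there and to at most 3232 CPM in any other library.

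Levels of different genes were compared per kilobase of the longest coding transcript. In wild type Lgals1 was highest at 2204 ± 111 CPM per kilobase, followed by Crip1 at 1071 ± 170 and S100a6 at 513 ± 62.6. The means of S100a10 (383), Anxa2 (327) and Vim (265) came next, then Lgals3 (151), S100a11 (96.5), S100a4 (95.7) and Anxa1 (74.4). The ranges of neighbours in this order did not overlap between Lgals1 and Crip1, between Crip1 and S100a6, and between Vim and Lgals3, and all other neighbours overlapped. In knockout the first 7 kept these ranks by their means, Anxa1 came eighth at 104 ± 43.2 CPM per kilobase and S100a4 last at 14.6 ± 21.9. Per kilobase of all annotated exons, S100a6 (274) came before Crip1 (242) in wild type and the other ranks were kept.

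**Figure D4:**
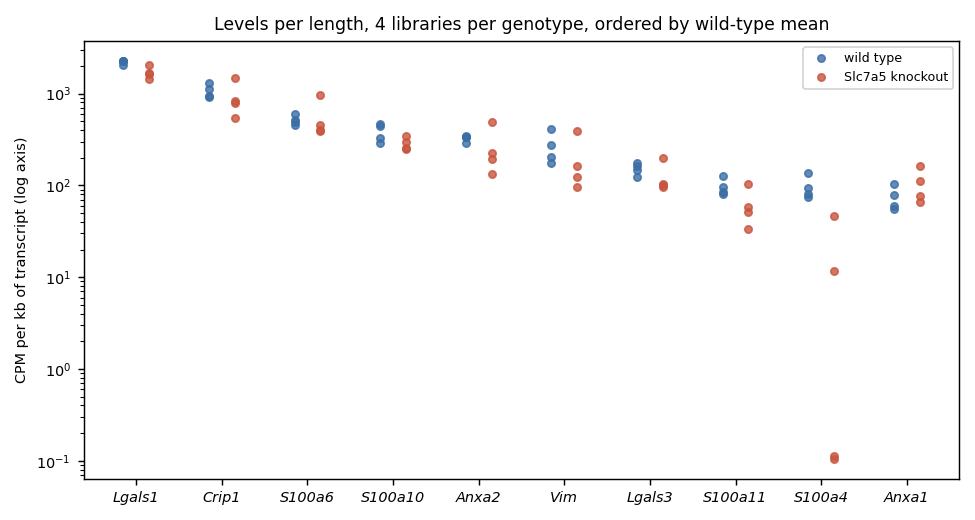
CPM per kilobase of the longest coding transcript (log axis) for each member, ordered by the wild-type mean, with 1 point per library and genotypes side by side. Lgals1 is highest in both genotypes, and the knockout points of S100a4 spread from 0.105 to 46.5.

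The spread between replicates was set beside that of abundant genes. Among the 2816 abundant genes the median SD of log2 CPM (0.5 counts added) was 0.46 between wild-type libraries and 0.80 between knockout libraries. Between wild-type libraries it ran from 0.07 for Lgals1 to 0.54 for Vim, and 9 of the 10 members were below that median. Between knockout libraries it was 0.21 for Lgals1, 0.22 for S100a10, 0.87 for Vim and 4.22 for S100a4, and the other 6 lay between 0.22 and 0.80. S100a4 and S100a11, with mean levels under 50 CPM, are not among those abundant genes.

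Ratios between members within a library do not depend on how the libraries are scaled. Of the 45 pairs, 9 had ratios that did not overlap between genotypes, against 6.97% of 3963520 pairs of abundant genes. 5 of the 9 involve S100a4, and without that gene 4 of 36 pairs (11.1%) remained. S100a11, with a mean of 40.5 CPM, is like S100a4 not among the abundant genes. It is in the remaining pairs with S100a6 and with Anxa1, so these shares are not of like genes. The ratio of Anxa1 to Anxa2 was 0.205, 0.345, 0.268 and 0.225 in wild type and 0.393, 0.672, 0.575 and 0.385 in knockout. It was higher in every knockout library, replicate 4 included, where both genes were high. The ratio of S100a11 to its partner Anxa1 was 0.486, 0.240, 0.328 and 0.685 in wild type and 0.156, 0.233, 0.139 and 0.197 in knockout. All knockout values were lower, and replicate 2 of each genotype was separated by little.

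S100a6 stood in higher proportion to both S100a11 and Anxa2 in the knockout libraries. Its ratio to S100a11 was 9.01, 9.02, 7.63 and 5.59 in wild type and 16.4, 9.67, 12.99 and 13.3 in knockout. Its ratio to Anxa2 was 0.897, 0.746, 0.673 and 0.862 in wild type and 0.9996, 1.51, 1.04 and 1.004 in knockout. The ratio of S100a10 to Anxa2, the other partners, overlapped between genotypes, at 0.399 to 0.771 in wild type and 0.248 to 1.05 in knockout. These pairs were singled out after their values were seen. The transcripts differ in base composition, with 43.6% GC in Anxa1 and 53.1% in Anxa2. With the GC offset the log2 fold changes came to 0.30 for Anxa1 and -0.20 for Anxa2, closer together than the 0.49 and -0.33 without it.

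**Figure D5:**
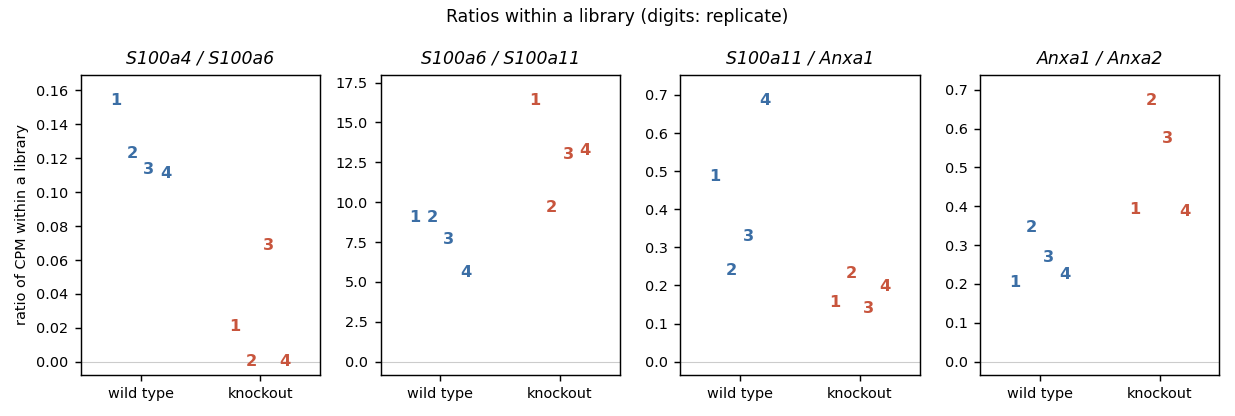
Ratios of CPM within a library (vertical axis, from 0) for 4 pairs of members, with digits giving the replicate and the genotypes side by side. The Anxa1 to Anxa2 ratio is at most 0.345 in wild type and at least 0.385 in knockout, and the genotypes do not overlap in the other 3 panels either.

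Likeness across the 8 libraries was measured as the root mean square difference of log2(CPM + 0.5), each gene centred on its own mean. The closest members were Lgals3 and Crip1 at 0.17, Anxa2 and Crip1 at 0.20, and S100a6 and Crip1 at 0.26. The neighbours S100a4 and S100a6 differed by 2.79, and S100a10 and S100a11 by 0.54. Against the mean of the 10 members, Lgals1 lay nearest among them (0.26) and S100a4 farthest (2.36). Of 2709 other abundant genes, those most alike to that mean were Rps3a1 (0.20), Rps15 (0.22), H2-D1 (0.23), Rpl13 (0.23) and Dad1 (0.23), and the median of all was 0.86. These ranks rest on S100a4, whose single counts pull the mean down in knockout replicates 2 and 4. With S100a4 left out of the mean, Lgals3 (0.12) and Crip1 (0.16) lay nearest among the members. The other genes most alike then included Sh3bgrl3 (0.10), Rbx1 (0.13), Higd1a (0.14) and Lamtor2 (0.14), and 0 of the 5 named before were among the nearest 5, a comparison added after the values were seen. Rps3a1, Rps15 and Rpl13 encode ribosomal proteins, whose reads can be shared with pseudogenes and are uncertain, H2-D1 a class I MHC chain, and Dad1 a subunit of the enzyme that attaches N-linked glycans. All of the libraries share depth and composition between genes, so likeness of this kind is a description only.

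The other genes of the families were read from lists of relatives. Of 12 other S100 genes only 3 passed the filter, and all 3 had lower estimates that did not pass the test. S100a13, which took the most counts of these, averaged 352 ± 80.3 CPM in the wild-type and 298 ± 44.6 CPM in the knockout libraries, a log2 fold change of -0.24 (SE 0.27). S100a8 and S100a9, the neutrophil alarmins, were at most 6.25 and 20.8 CPM in any library. Of 10 other annexins 5 were tested, with 4 lower and 1 higher estimate, a median of -0.26 and none called by edgeR. Anxa6, an annexin of membrane traffic, was 596 ± 152 and 497 ± 176 CPM, and Anxa5, which binds phosphatidylserine, was 479 ± 110 and 430 ± 88.9 CPM.

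Anxa4, an annexin of epithelial and secretory membranes, was the annexin of this list with a higher estimate. It was 52.4, 71.4, 79.1 and 62.9 CPM in wild type and 152, 167, 147 and 163 CPM in knockout. All 4 knockout libraries, replicate 4 included, lay above all wild-type libraries, which 1.52% of tested genes did. The log2 fold change was 1.24 (SE 0.47, edgeR unadjusted p = 0.0226, adjusted p = 0.942), so it was not called in that test. DESeq2 gave an adjusted p of 0.0173, and the adjusted p ran from 0.0173 to 1 over the alternatives. Its 4 knockout values varied less relative to their mean than those of any of the 10 members.

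Of 9 genes in the list of other galectins, which also holds the non-galectin Lgals3bp, 6 were tested. They had 2 lower and 4 higher estimates, a median of 0.43 and none called. Lgals9, a galectin bound by Tim-3, was 76.7 ± 31.5 and 75.2 ± 29.2 CPM, and Lgals3bp, the glycoprotein ligand of Lgals3, averaged 88.6 ± 43.0 CPM in the wild-type and 20.5 ± 24.7 CPM in the knockout libraries, with overlapping groups and a log2 fold change of -2.11 (SE 1.66). Of 14 other CRIP, LIM and filament genes 7 were tested, all with lower estimates, a median of -1.04 and none called. Among all tested genes, 55.0% had a lower estimate and the median was -0.12. The list median is the estimate of Zyx (SE 1.66), which was 164, 0.389, 119 and 0 CPM in knockout replicates 1 to 4. Lmna, the nuclear lamin, reached 1400 CPM in wild-type replicate 1 and otherwise ran from 250 to 945 CPM (log2 fold change -0.06, SE 0.53). Plec, which links vimentin filaments to other structures, was 183 ± 48.9 and 108 ± 64.2 CPM (log2 fold change -0.77, SE 0.56).

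Of 14 binding partners and receptors 8 were tested, with 5 lower and 3 higher estimates and none called. Ptprc, which encodes CD45, a glycoprotein bound by galectins, was 1222, 1789, 1769 and 2070 CPM in wild type and 2333, 3320, 2130 and 2526 CPM in knockout. Every knockout library lay above every wild-type library, as for 1.52% of tested genes. The log2 fold change was 0.59 (SE 0.21, edgeR adjusted p = 0.780). Ahnak, the giant scaffold bound by the S100a10 and Anxa2 complex, was 747 ± 176 and 806 ± 181 CPM. Myh9, the myosin heavy chain bound by S100a4, was 356 ± 102 and 272 ± 108 CPM, with overlapping groups. Plaur, the urokinase receptor, was 163 ± 171 and 123 ± 82.4 CPM.

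Of 12 genes that accompany the members in effector and memory T cells, 9 had lower and 3 higher estimates, with a median of -0.13 and none called. Lsp1, an actin-binding protein of leukocytes, was 1569, 1158, 999 and 1602 CPM in wild type and 890, 620, 846 and 702 CPM in knockout. The groups did not overlap, and the log2 fold change was -0.80 (SE 0.22, edgeR adjusted p = 0.460). Itgb7 and Tagln2 were the other 2 of these genes with every knockout library below every wild-type library, and were named after their values were seen. Of all tested genes, 4.62% had that arrangement. Capg, Id2 and Cd44 had log2 fold changes of -0.06, 0.05 and -0.04. Of 10 genes of naive and resting T cells 9 had higher estimates, with a median of 0.29 and none called. Among all tested genes, 55.0% had a lower estimate and the median was -0.12. Il7r, the interleukin 7 receptor, was 283 ± 68.2 and 468 ± 302 CPM (log2 fold change 0.73, SE 0.42), and Tcf7, a factor of naive and stem-like T cells, was 261 ± 53.6 and 301 ± 167 CPM. 1 of the 10, S1pr1, the receptor for egress from tissue, had every knockout library above every wild-type library, as 1.52% of tested genes did. S1pr1 was likewise named after its values were seen.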

How the data were processed

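The deposited file gives raw counts, whole numbers without normalization by the authors, for 24421 gene symbols in 8 libraries. HISAT2 2.1.0, featureCounts, edgeR 3.28.1 and mm10 are named, per the submitters' processing notes; annotation, strand setting and duplicate handling are not given in the sources used here, so reads of overlapping genes cannot be told apart. RNA was amplified with a low-input kit, per the labels' protocols.

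Counts were analysed in R 4.3.3 with edgeR 4.0.16 (filterByExpr, minimum count 10 and minimum total 15; TMM; robust quasi-likelihood test with genotype only; Benjamini-Hochberg adjustment over 8489 genes; threshold 0.05), and the scripts were tested on simulated data. CPM are reads scaled by effective library size, errors are SD, and the SE of a log2 fold change is its size divided by the root of F. The filter removed Slc7a5. Alternatives were other filters, scalings, DESeq2 1.42.0, voom of limma 3.58.1, the replicate block, a GC offset (known GC for 96.6% of tested genes) and each library left out. A mean CPM of at least 50 and the removal of both knockout libraries with the fewest genes were added after the data were seen, as were the member sum without knockout replicate 4 and the likeness without S100a4. The GC curve (loess, span 0.75) used genes with counts in every library and was centred to keep the scaling. A first version without these conditions, whose results were seen, lowered the scale of knockout replicate 4 through its zeros and was replaced. Lengths are of the longest coding GENCODE M21 transcript; all exons were also used, a choice made after the values were seen. Promoters are from RefSeq (GRCm38.p6).

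The members and lists were chosen with earlier results of these data known. Named genes were the 10 members, Slc7a5, up to 4 genes of each list with the highest mean CPM, and the 5 genes most alike to the members' mean; lists hold relatives, partners, companions and markers of other cell types. Marker lists not described with the libraries were scarce: neutrophil markers summed to at most 155 CPM in any library, synovial fibroblast markers (mostly Thy1, which T cells express) to 157, endothelial and mural markers to 158, B and plasma cell markers (mostly Xbp1) to 446, CD8 and natural killer markers to 123 and muscle markers to 87.7.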

Additional observations from a re-analysis of the deposited data

Results flagged for a closer look

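In knockout replicate 4, S100a6 stood at 708 CPM, far from the 283 to 336 CPM of the other 3 knockout libraries, and the gap to the nearest of them was 0.875 of the range of the group. In the same library Lgals3 stood at 281 CPM against 135 to 147 CPM, with a gap of 0.921 of the range. Both exceed the critical value of Dixon's test for 4 samples. 22 groups were tested this way, and chance alone marks about 1 group in 20.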

How the results depend on the processing

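No alternative called any of the 10 genes, and 201 of 208 estimates for single members kept their direction. S100a6, whose estimate was 0.11, turned to -0.014 with upper quartile scaling, -0.034 with limma voom, -0.23 with voom and library quality weights, and -0.27 without both knockout libraries with the fewest genes. With single libraries left out it ran from -0.32 to 0.25, and knockout replicate 4 was the library whose removal turned it. Lgals3 turned to 0.0046 with the GC offset. The members' median ran from -0.60 without knockout replicate 4 to -0.14 with the GC offset. With that offset 7 of the 10 genes had lower estimates, and the median of all genes was -0.065. Over all genes DESeq2 called 387 and limma voom 4, with or without library quality weights, against 0 for edgeR. The number of members with every knockout library below every wild-type library was 2 with library totals and with RLE size factors. Among all genes tested the shares were then 5.25% and 4.41%. Without both knockout libraries with the fewest genes it was 6 members, against 8.37% of genes tested. With single libraries left out it was 1 to 6 members, against 6.13% to 9.67% of genes tested. The cause of these changes was not tested. S100a4 and S100a11 were not tested with a mean CPM of at least 50, which removes them.

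With the replicate number as a block, S100a6 came to -0.0011 and S100a4 to -5.90, and none of the 10 genes was called. Libraries with the same number did not deviate together (correlations of -0.04, 0.04, 0.01 and -0.01 over 3480 genes), so the numbers were not taken as pairs.

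Read depth did not limit the abundant members, and 3 counts, the limit that a count of 0 allows, correspond to 0.0834 to 0.167 CPM. Loss of molecules before amplification is not covered by these values. The spread between knockout libraries limits what 4 against 4 libraries can show.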
